A study of Mus musculus with 2 samples.

Results

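The regions described here are the Hmga2 peaks on mouse chromosomes 7 and 11, taken as every peak that the deposited list places on these chromosomes. They number 2629 of the 34597 peaks in the list, of which 1241 lie on chromosome 7 and 1388 on chromosome 11. The choice rested on how many protein-coding genes these chromosomes hold, and no measured value of the ChIP entered its rule. Earlier results of these data were, however, known when it was made. Chromosomes 1, 3 and 12, which hold few genes per Mb, served as the comparison with 7242 peaks.

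Chromatin immunoprecipitation followed by sequencing (ChIP-seq) was used to map the endogenous Hmga2 protein in cells of the mouse embryonic stem cell line E14Tg2a that had been induced into epiblast-like cells (EpiLC, stabilized), according to the labels. The study's methods name other material for the ChIP-seq, namely epiblast stem cells that came from induced pluripotent cells, and the labels are followed here. The 2 libraries are 1 Hmga2 ChIP, made with an antibody from Cell Signaling, and 1 input without antibody, both from the same cells under the same treatment. The 1 peak list belongs to the ChIP library, and the input enters it only through the background of the peak caller.

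Hmga2 is a non-histone chromatin protein of the high mobility group A family. It holds DNA in the minor groove of A+T-rich stretches through short motifs called AT hooks and bends it. In mammalian genomes, A+T-rich and gene-poor chromatin tends to lie at the nuclear lamina, whereas G+C-rich and gene-rich chromatin tends to lie in the nuclear interior.

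Without a replicate, the values below carry no error from repeated experiments, and chromosomes were not tested against each other. The intervals given are 95% intervals for the number of peaks or windows counted (Wilson for shares, exact conditional binomial for ratios of densities). They cover counting error only, and they are too narrow because neighbouring peaks and windows are not independent. The list gives no number of reads, and the depth of the libraries was not analysed here.

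Each peak has a length and a pileup, which is the height of the overlapping ChIP fragments averaged over the region. The lowest pileup in the list was 5. If 1 unit of pileup was 1 fragment, which was not tested, the exact Poisson interval ran from 1.62 to 11.7 at a pileup of 5 and from 4.80 to 18.4 at a pileup of 10. If so, the height of most single peaks was measured with low precision. The results below rest on counts of many peaks. Positions are those of the list. The labels name mm9 as the build, and 32 peaks of chromosome 7 end beyond the GRCm38 end of that chromosome, so GRCm38 sequence and genes were not joined to the peaks and neither is shown for single peaks.

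The names gene-rich and gene-poor were checked on the GRCm38 genome with the protein-coding genes of GENCODE M21. Chromosomes 7 and 11 held 13.9 and 13.4 such genes per Mb and ranked 1 and 2 among the 19 autosomes. Chromosomes 3, 1 and 12 held 6.27, 6.18 and 5.35 genes per Mb, ranks 16, 17 and 19. Both gene-rich chromosomes also had a lower A+T content than the gene-poor ones, although within each group the chromosome with more genes per Mb had the higher A+T content. The A+T content of whole chromosomes was lowest on chromosome 11, at 56.2%, and next lowest on chromosome 7, at 57.0%, whereas it was 58.3% on chromosome 12, 58.9% on chromosome 1 and 59.5% on chromosome 3. Gene number and base composition can therefore not be told apart in this comparison of chromosomes.

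The genes of chromosomes 7 and 11 are also of different kinds. Chromosome 7 carried 244 olfactory receptor and 154 vomeronasal receptor genes, which encode odour and pheromone receptors of sensory neurons and lie in large tandem clusters, as well as 26 kallikrein genes, which encode serine proteases. Chromosome 11 carried 82 olfactory receptor genes, 50 genes of keratins and keratin-associated proteins and the 10 Hoxb genes, which pattern the body axis. Without the receptor genes, chromosome 11 ranked 1 with 12.8 genes per Mb and chromosome 7 ranked 2 with 11.2.

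Chromosomes 7 and 11 held fewer Hmga2 peaks per Mb than chromosomes 1, 3 and 12. Density was taken per Mb of the span between the outermost peaks of a chromosome. It was 8.38 peaks per Mb on chromosome 7, the lowest of the 19 autosomes, and 11.7 on chromosome 11, which ranked 17. On chromosomes 12, 1 and 3 it was 13.3, 15.1 and 17.5. Chromosomes 7 and 11 together had 0.638 times the density of chromosomes 1, 3 and 12 together (0.610 to 0.667). By itself, chromosome 7 had 0.542 times that density (0.510 to 0.575) and chromosome 11 had 0.758 times (0.715 to 0.803). Whether the 2 gene-rich chromosomes differed from each other was not tested. Chromosome 11 and the gene-poor chromosome 12 were the nearest pair across the comparison.

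To see where peaks were left on these chromosomes, they were counted by their centre in windows of 1 Mb that lie whole within the span. A window is called sparse at 8 peaks or fewer and dense at 18 or more, the quartiles of the counts over all 2384 autosomal windows. Because many windows tie at these counts, 30.7% of all autosomal windows were sparse and 27.4% were dense. Windows with no peak made up 1.22%.

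Chromosome 7 was made mostly of sparse windows. Of its 147 windows, 87 were sparse (59.2%, 51.1% to 66.8%), the highest share among the autosomes, and 12 were dense (8.16%, 4.73% to 13.7%). The counts ran from 0 to 41 peaks with a median of 7 (quartiles 4 and 12). No peak was present in 14 of them.

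Chromosome 11 lay between chromosome 7 and the gene-poor chromosomes. Of its 117 windows, 43 were sparse (36.8%, 28.6% to 45.8%) and 19 were dense (16.2%, 10.6% to 24.0%). The counts ran from 1 to 31 with a median of 11 (quartiles 7 and 16), so no window was without a peak. The share of sparse windows was close to the 35.9% of chromosome 12 and above the 20.2% of chromosome 1 and the 12.9% of chromosome 3. Dense windows made up 26.5%, 28.5% and 42.6% of chromosomes 12, 1 and 3. For chromosomes 7 and 11 together the share of sparse windows was 49.2% against 21.7% on chromosomes 1, 3 and 12. With pileups of at least 10 alone, where a sparse window is one without such a peak, the shares were 41.7% and 40.0%, and the former combines 46.9% on chromosome 7 with 35.0% on chromosome 11. With a q-value under 1e-05 the pooled shares were 49.6% and 48.8%.

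**Figure D1:**
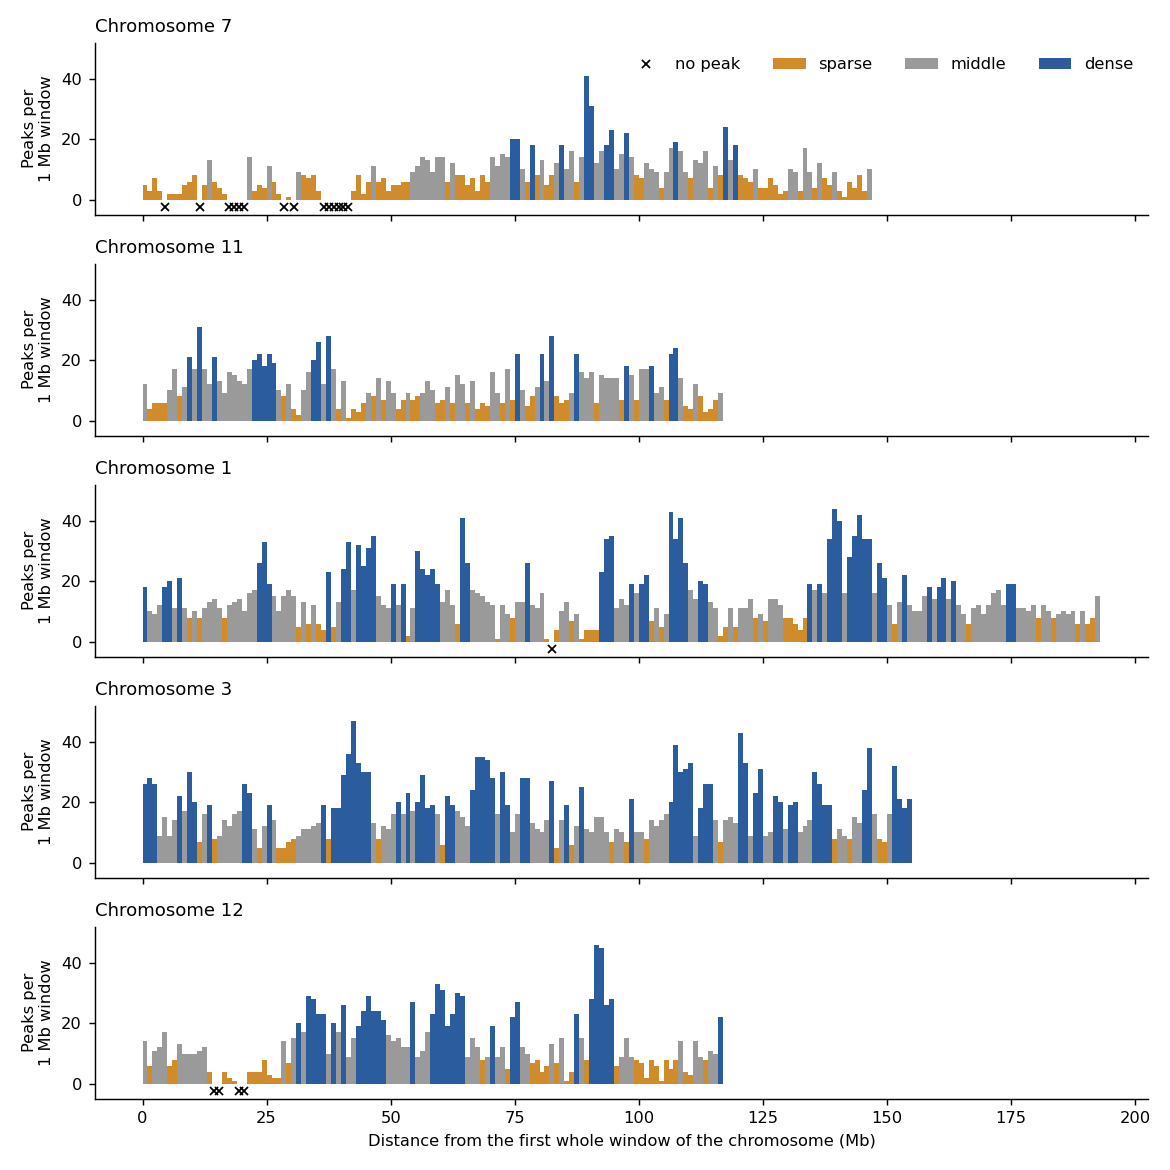
Number of Hmga2 peaks in each 1 Mb window (vertical axis) along chromosomes 7, 11, 1, 3 and 12, against the distance in Mb from the first whole window (horizontal axis). Orange bars are sparse windows, grey bars middle ones, blue bars dense ones and crosses windows with no peak. The 14 empty windows of chromosome 7 all lie in the first 70 windows, and chromosome 11 has none.

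**Figure D2:**
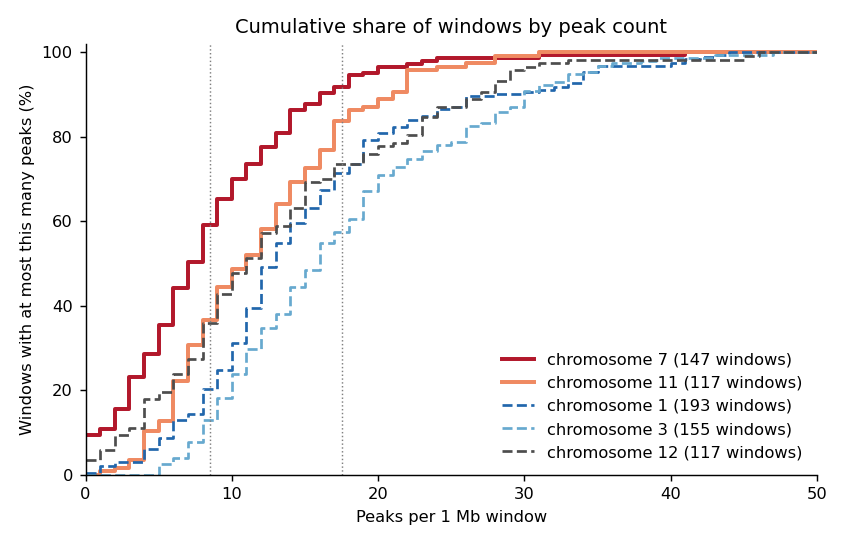
Cumulative share of 1 Mb windows in percent (vertical axis) with at most the number of peaks on the horizontal axis, for 5 chromosomes. Dotted lines mark the limits of the sparse class (8 or fewer) and the dense class (18 or more). The line of chromosome 7 reaches 59.2% at 8 peaks, and the lines of chromosomes 11 and 12 lie close together from 8 peaks to the median of 11. At the lowest counts the line of chromosome 12, which has 4 empty windows, lies above that of chromosome 11, which has none.

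The peaks of chromosome 7 were unevenly spread along it. Its longest run of neighbouring sparse windows spanned 14 Mb, from 36000001 to 50000000, and held 45 peaks. This length depends on the window, as the longest run was 8.5 Mb with windows of 500 kb and 40 Mb with windows of 2 Mb. A further run of 13 Mb, from 4000001 to 17000000, held 48 peaks. Within the longest run lay 6 neighbouring empty windows, from 40000001 to 46000000, and 4 more empty windows lay side by side from 21000001 to 25000000. The other empty windows stood singly. The widest stretch without a peak reached from 39285020 to 46409040, which is 7.12 Mb, and the next from 20618045 to 25055664, which is 4.44 Mb. The sequence of these stretches was not analysed here.

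The remaining peaks of chromosome 7 were gathered further along. The last sparse run of at least 7 Mb ended at 74000000, and this position, which was read from the counts themselves, divides the chromosome into a first stretch of 70 windows and a second of 77. The first stretch held 369 peaks (5.27 per Mb), all 14 empty windows, 57 sparse windows and no dense one. The second held 862 peaks (11.2 per Mb), no empty window, 30 sparse windows and all 12 dense ones. The density of the second stretch was thus close to that of chromosome 11. The longest dense runs spanned 2 Mb. They lay from 93000001 to 95000000 with 72 peaks, from 97000001 to 99000000 with 41 and from 78000001 to 80000000 with 40. The windows of the first of these were the fullest of the chromosome, with 41 and 31 peaks, and the window from 121000001 to 122000000 followed with 24.

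On chromosome 11 the longest sparse runs reached 4 Mb. They lay from 5000001 to 9000000 with 22 peaks, from 45000001 to 49000000 with 14 peaks and from 116000001 to 120000000 with 22 peaks. The longest dense run spanned 5 Mb, from 26000001 to 31000000, and held 101 peaks. The fullest window, from 15000001 to 16000000, held 31 peaks, and those from 41000001 to 42000000 and from 86000001 to 87000000 held 28 each. The widest stretch without a peak was 0.866 Mb, from 80505430 to 81371043. Counts in neighbouring windows were correlated on both chromosomes (Spearman's rho 0.55 on chromosome 7 and 0.37 on chromosome 11, over 147 and 117 windows of 1 library), as on chromosomes 1, 3 and 12 (0.53, 0.40 and 0.61).

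Long sparse runs also occurred on a gene-poor chromosome. Chromosome 12 had a sparse run of 15 Mb, from 17000001 to 32000000, with 38 peaks, and 4 empty windows. The longest sparse runs of chromosomes 1 and 3 spanned 5 and 4 Mb. The longest dense runs were longer there than on chromosome 7, at 5 Mb on chromosome 1, 7 Mb on chromosome 12 and 8 Mb on chromosome 3, and the fullest windows held 44, 46 and 47 peaks.

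The peaks that were left on chromosomes 7 and 11 had higher pileups. The median pileup was 6.59 on chromosome 7 (quartiles 5.68 and 8.04) and 6.58 on chromosome 11 (5.68 and 7.97), ranks 1 and 2 among the autosomes, with chromosome 19 at the same median as chromosome 11. It was 6.35, 6.24 and 6.29 on chromosomes 1, 3 and 12. These shifts were small beside the spread of single peaks. The upper quartile differed more than the median, at 7.99 for chromosomes 7 and 11 together against 7.46 for chromosomes 1, 3 and 12.

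A pileup of at least 10 was reached by 132 peaks of chromosome 7 (10.6%, 9.04% to 12.5%) and by 147 peaks of chromosome 11 (10.6%, 9.08% to 12.3%). Over the whole list 7.95% of peaks reached it, and on chromosomes 1, 3 and 12 together 6.89% did (6.33% to 7.50%). The ranks of chromosomes 7 and 11 in this share were 2 and 3. The q-value of a peak is its p-value adjusted over all candidates, and the p-values, q-values and folds given here were restored from columns in which decimal points had been displaced. A q-value under 1e-05 was reached by 215 peaks of chromosomes 7 and 11, or 8.18%, against 6.01% of the list. A q-value under 0.05 was reached by 76.0%, against 72.5% of the list. The p- and q-values derive from the pileup and its background and are no separate evidence.

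When the densities were compared at matched pileup, the deficit of chromosomes 7 and 11 as a pooled pair was largest in the low peaks. At a pileup of 10 or more, the pair joined chromosome 7, at 0.836 times the density of chromosomes 1, 3 and 12, with chromosome 11, at 1.17 times. Between pileups of 5 and 5.5, chromosomes 7 and 11 had 1.88 peaks per Mb against 3.50 on chromosomes 1, 3 and 12, a ratio of 0.536 (0.484 to 0.593). The ratio was 0.577 from 5.5 to 6 and 0.576 from 6 to 7. It was 0.701 from 7 to 8 and 0.788 from 8 to 10. Between 10 and 15 it was 0.985 (0.839 to 1.15), and at 15 or more, where 34 and 62 peaks were counted, it was 0.963 (0.615 to 1.49). At pileups under 10 the ratio was 0.612 (0.584 to 0.642), and at 10 or more it was 0.982 (0.845 to 1.14). Among peaks with a q-value under 1e-05 it was 0.991 (0.835 to 1.17). High peaks numbered 1.05 and 1.07 per Mb in the groups of chromosomes, a difference within counting error, which does not show that the densities were equal.

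The same gradient was seen on each chromosome, at different levels. On chromosome 7 the ratio rose from 0.449 in the lowest class to 0.839 between 10 and 15 (0.678 to 1.03). On chromosome 11 it rose from 0.644 to 1.17 (0.952 to 1.42). High peaks themselves were fewest per Mb on chromosome 7, at 0.891, rank 19 among the autosomes. Against the autosomes other than 7 and 11, the density of its high peaks was 0.794 times (0.661 to 0.947), compared with 0.552 times (0.519 to 0.586) for its peaks under 10. On chromosome 11 they numbered 1.24 per Mb, rank 4, and the ratio to the same autosomes was 1.11 (0.931 to 1.31) at 10 or more and 0.773 (0.730 to 0.818) under 10. Against chromosomes 1, 3 and 12, the ratio at 10 or more was 0.836 (0.685 to 1.01) on chromosome 7 and 1.17 (0.963 to 1.40) on chromosome 11. Both intervals include 1 and they overlap.

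**Figure D3:**
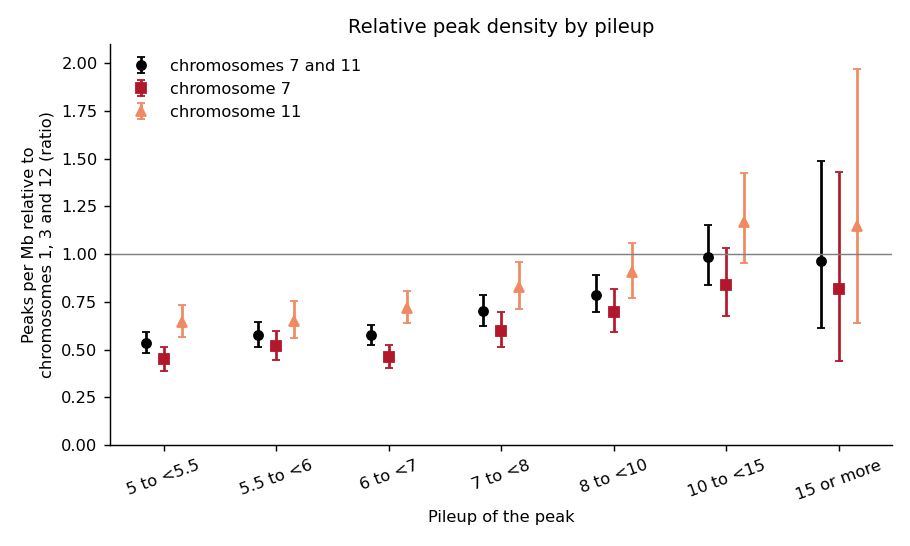
Peaks per Mb on chromosomes 7 and 11 together (black circles), on chromosome 7 (red squares) and on chromosome 11 (orange triangles), each divided by that on chromosomes 1, 3 and 12 (vertical axis, ratio), by class of pileup (horizontal axis). Bars are exact 95% intervals that cover counting error only, and the grey line marks equal density. The black circles run from 0.536 in the lowest class to 0.985 between pileups of 10 and 15.

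Low and high peaks were also counted in the 2 stretches of chromosome 7. The position that divides them was read from counts made up mostly of low peaks, so a larger difference in low peaks, and with it in the share of high ones, is in part fixed by that choice. Peaks with a pileup under 10 numbered 4.43 per Mb up to 74000000 and 10.2 per Mb beyond it. Peaks at 10 or more numbered 0.843 and 0.948 per Mb. The share of high peaks was 16.0% (12.6% to 20.1%) in the first stretch and 8.47% (6.79% to 10.5%) in the second. Without the first stretch, chromosomes 7 and 11 had 0.744 times the density of chromosomes 1, 3 and 12 over all peaks, and 1.06 times (0.897 to 1.24) over the high ones.

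The local background of each peak was derived from its fold and pileup. It has a floor of 0.843, and 46.3% of the peaks on chromosome 7, 40.8% on chromosome 11 and 46.4% on chromosomes 1, 3 and 12 lay within 1% of it. Its median was 0.864 on chromosome 7 and 0.881 on chromosome 11, in units of pileup, and 0.866, 0.862 and 0.856 on chromosomes 1, 3 and 12. It was 0.846, practically the floor, in the first stretch of chromosome 7 and 0.878 in the second. Medians so near a floor do not show whether the background was alike, and its part in the density differences was not tested.

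Sparse windows held higher peaks than dense ones. In the 130 sparse windows of chromosomes 7 and 11, 12.7% of 624 peaks had a pileup of at least 10 (10.3% to 15.5%), in the 103 middle windows 11.5% of 1293 peaks and in the 31 dense windows 7.33% of 696 peaks (5.62% to 9.51%). The median pileup fell from 6.82 over 6.62 to 6.28. The classes were formed by counting the same peaks, most of which are low, so the share of high peaks is tied to the class in part by construction. A dense window held 1.65 high peaks on average and a sparse one 0.608, whereas low peaks numbered 20.8 and 4.19. The gradient was not particular to these chromosomes, as the shares on chromosomes 1, 3 and 12 were 10.6%, 8.17% and 5.54%. On chromosome 11 alone the highest share, 12.7%, was in the middle windows, with 10.1% in the sparse ones, and their intervals overlap.

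**Figure D4:**
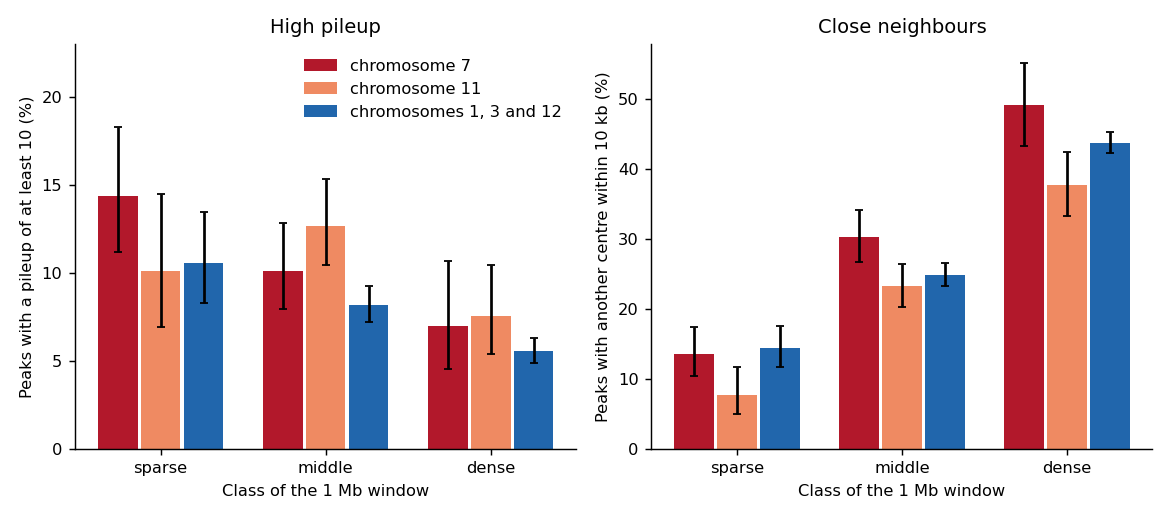
Share of peaks in percent with a pileup of at least 10 (left) and share with a neighbouring centre at most 10 kb away (right), in sparse, middle and dense 1 Mb windows of chromosome 7 (red), chromosome 11 (orange) and chromosomes 1, 3 and 12 (blue). Error bars are 95% Wilson intervals that cover counting error only. Close neighbours are most frequent in the dense windows of chromosome 7, at 49.3%.

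The 5 highest peaks of chromosome 7 lay in windows of every class. Dense windows held 21.9% of all its peaks, so 5 peaks do not show a preference. The highest, from 29062474 to 29062677 (204 bases), had a pileup of 33.1 and a fold of 16.0 over its background, and it ranked 3 by p-value in the whole list. It lay in the first stretch, in a window of 11 peaks. The next, from 74792024 to 74792217, had a pileup of 24.1 and a fold of 7.15, since its background of 2.52 was the highest among the named peaks. The peak from 6311575 to 6312100 had a pileup of 19.95 over a length of 526 bases and lay in a sparse window of 7 peaks. The peak from 46409041 to 46409226, with a pileup of 18.8 and a fold of 10.7, stood at the far edge of the 7.12 Mb stretch without peaks, in a window of 3 peaks. Of the 5 highest, the peak from 79384880 to 79385045, with a pileup of 19.0, was the one in a dense window, with another peak centre 5138 bases away.

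On chromosome 11 the highest peak, from 105181320 to 105181457 (138 bases), had a pileup of 29.2 and a fold of 11.9 and ranked 7 by p-value in the list. A further peak of the same window, from 105629483 to 105629697, had a pileup of 22.1 and a fold of 12.5. The peaks from 50033665 to 50033866 and from 5385042 to 5385216, with pileups of 23.3 and 21.3, lay in sparse windows of 8 and 4 peaks. The peak from 86834930 to 86835155, with a pileup of 18.7, lay in a dense window of 28. These 5 peaks were thus found in windows of every class, and all were at most 226 bases long.

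Peak length differed little between the chromosomes. The median was 180 bases on chromosome 7 (quartiles 140 and 273), 186 on chromosome 11 (142 and 278), and 186, 191 and 187 on chromosomes 1, 3 and 12. The shortest length in the list, 134 bases, was held by 20.5% and 19.7% of the peaks on chromosomes 7 and 11. Whether it was a minimum set in the peak caller was not tested. Long peaks were scarcer. A length of at least 500 bases was reached by 63 peaks of chromosomes 7 and 11 (2.40%, 1.88% to 3.05%) and by 3.82% of the peaks on chromosomes 1, 3 and 12 (3.41% to 4.29%).

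The longest peaks had pileups between 5.25 and 7.33, all under 10, as were 1109 of the 1241 peaks on chromosome 7 and 1241 of the 1388 on chromosome 11. On chromosome 7 they measured 737 bases (from 115667683 to 115668419, pileup 5.54), 725 bases (from 93452672 to 93453396, pileup 7.33) and 645 bases (from 113389272 to 113389916, pileup 5.86). On chromosome 11 they measured 946 bases (from 40013099 to 40014044, pileup 5.25), 913 bases (from 18625057 to 18625969, pileup 5.55) and 797 bases (from 4452215 to 4453011, pileup 5.58). None of these was among the highest peaks named above. By window class, the median length on both chromosomes together was 175 bases in sparse, 181 in middle and 198.5 in dense windows.

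Grouping was measured as the percentage of peaks whose nearest other centre lay within 10 kb. It was 29.2% on chromosome 7 (26.7% to 31.8%) and 24.8% on chromosome 11 (22.6% to 27.1%), against 34.1%, 36.2% and 32.4% on chromosomes 1, 3 and 12. Over all autosomes it was 33.5%. This share rises with density itself. Chromosome 7 nevertheless had the larger share of the pair at the lower density, and its dense windows had 49.3% (43.4% to 55.2%) against 37.7% (33.3% to 42.4%) in those of chromosome 11 and 43.8% (42.3% to 45.4%) in those of chromosomes 1, 3 and 12. In sparse windows the shares were 13.6% on chromosome 7 (10.5% to 17.4%), 7.66% on chromosome 11 (4.96% to 11.7%) and 14.4% on chromosomes 1, 3 and 12 (11.7% to 17.6%). The median distance between neighbouring peaks was 56.4 kb on chromosome 7 and 47.5 kb on chromosome 11, while the variance of the window counts was 4.90 times their mean on chromosome 7 and 3.29 times on chromosome 11. On chromosomes 1, 3 and 12 this quotient was 5.33, 4.34 and 6.56, but it grows with density. The coefficient of variation left after the counting variance is subtracted does not grow in this way, and it was 0.682 on chromosome 7 and 0.440 on chromosome 11 against 0.536, 0.436 and 0.647 on chromosomes 1, 3 and 12. These values have no error between experiments and were not tested against each other.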

How the data were processed

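One Hmga2 ChIP library and its input were grouped per the labels. Per the methods, the authors aligned trimmed reads with BWA, discarded ambiguous ones and called peaks with MACS2 against the input. The header of the study's own peak table gives broad mode and names 1 ChIP and 1 input alignment. The build is mm9 per the labels, while the methods name GRCm38 as well. The deposited pileup is a signal, and it was used as deposited together with the length. The deposited fold, p- and q-values were treated as scores, because their decimal points had been moved. Of 103715 values with at least 4 digits, 103706 had exactly 3 decimals. The points were placed so that fold and p-value met the formulas of MACS2, which left a largest p difference of 8.97% among the peaks described, and the background followed from fold and pileup. How well the q-values were restored was not tested.

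Windows, runs and shares were computed with Python 3.11.15, numpy 2.4.6, pandas 2.3.3 and scipy 1.17.1, and plots with matplotlib 3.10.9. Named peaks are the 5 highest and the 3 longest of each chromosome. Named windows are the 3 fullest, runs of at least 2 empty windows and the longest sparse and dense runs. Further runs, the stretches of chromosome 7 and the pileup classes were chosen after their values were seen. Stricter peak sets, merged peaks, other windows, distances and comparison chromosomes were tried. The chromosomes, limits and lists were chosen with earlier results of these data known. Sequence and genes under the peaks were left out because no mm9 genome was used here.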

Additional observations from a re-analysis of the deposited data

How the results depend on the processing

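No paired analysis was possible because there was 1 ChIP library, and for the same reason no replicate could be left out. Against 0.638 with all peaks, the density ratio of chromosomes 7 and 11 to chromosomes 1, 3 and 12 was 0.752 for peaks of fold 4 or more, 0.991 for those with a q-value under 1e-05 and, as an alternative chosen after seeing the data, 0.982 for those with a pileup of at least 10. It was 0.669 over windows with at least 1 peak, 0.542 and 0.758 for chromosomes 7 and 11 alone and 0.672 against all other autosomes. Chosen after seeing the data, it was 0.563 against chromosome 3, 0.741 against chromosome 12 and 0.744 without the first stretch of chromosome 7.

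The share of sparse windows, 49.2% with all peaks against 21.7% on chromosomes 1, 3 and 12, was 42.2% against 20.7% with windows of 500 kb, 42.6% against 18.2% with windows shifted by 500 kb and 41.7% against 40.0% at a pileup of at least 10. From fold 4 upwards it was 45.8% against 31.4%, a smaller excess. At a q-value under 1e-05 it was 49.6% against 48.8%. The pooled excess was thus not seen at this q-value or at a pileup of at least 10. The share of dense windows, 11.7% with all peaks against 32.7% on chromosomes 1, 3 and 12, was 19.7% against 32.5% from fold 4 upwards. It was 50.4% against 51.2% at a q-value under 1e-05 and 28.0% against 28.4% at a pileup of at least 10. The dense limit fell to 7, 1 and 2 peaks, in this order. At the last 2 thresholds a sparse window is an empty one by construction. At a q-value under 1e-05 any window with a peak counts as dense. The longest sparse run of chromosome 7, 14 Mb, was 8.5 Mb with windows of 500 kb and 40 Mb with windows of 2 Mb.

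From fold 4 upwards, at a q-value under 1e-05 and at a pileup of at least 10, the median length was 164, 193 and 189 bases, and the share of peaks with a neighbour within 10 kb was 13.4%, 4.65% and 5.73%, since fewer peaks remained. The median pileup was 8.22 and 12.2 at the first 2. The neighbour share was 24.2% with peaks less than 1 kb apart merged, 24.7% at pileups under 10, 15.3% within 5 kb and 71.4% within 50 kb. The threshold of fold 2 and p under 0.001 kept 34593 of 34597 peaks and is therefore no separate check, whereas the ratios of 0.991 and 0.982 rest on sets of 2081 and 2752 peaks. The other 27 values, those at fold 2 and p under 0.001 included, moved by less than their counting interval or, for runs, by at most 1.5 times. For shares of windows this concerns chromosomes 7 and 11 alone. From fold 4 upwards the sparse share on chromosomes 1, 3 and 12 rose from 21.7% to 31.4%. No direction against chromosomes 1, 3 and 12 is drawn where a ratio's interval includes 1. Other causes of these changes were not tested. The unknown depth and the low pileups limit each single peak.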
